A study of Mus musculus with 6 samples.

Results

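The genes examined here were 39 macrophage and monocyte genes, taken by exact symbol from the 26167 genes of the expression table of mouse Hepa1-6 tumors. They comprise pan-macrophage and myeloid genes, the complement C1q chains, scavenger, uptake and Fc receptors, the colony-stimulating factor genes, lipid-handling macrophage genes, monocyte genes, monocyte-attracting chemokines, and the alternative activation genes Chil3 and Retnla. All 39 were found, and 38 passed the filter of at least 10 counts in at least 3 tumors that left 16513 genes for testing. Vsig4, a complement receptor of resident macrophages, did not pass.

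Bulk RNA sequencing was done on 6 tumors of Hepa1-6, a mouse hepatoma cell line, 3 from control mice and 3 from mice given sorafenib (Sora), a multikinase inhibitor used in hepatocellular carcinoma. Female C57BL/6J mice aged 6 to 8 weeks carried the cells under the skin from day 0, and Sora at 10 mg/kg was put into the peritoneum on days 9, 11, 13 and 15. The sources used here do not say what the control mice were injected with. The libraries are numbered 1, 3 and 4 in the control group and 2, 3 and 4 in the Sora group, nothing pairs them, and the labels do not say whether each came from a different mouse, so p-values measure the spread between these tumors. Such a tumor is grown from 1 cell line and lies outside the liver, and Clec4f, a gene of the liver's Kupffer cells, had 1 read in all 6 tumors together.

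Many macrophages in a tumor come from circulating monocytes, which enter along gradients of chemokines such as Ccl2 and mature under Csf1, a ligand of the receptor tyrosine kinase Csf1r. Mature macrophages make complement C1q, take up dead cells and lipids through scavenger receptors, and bind antibody-coated targets through Fc receptors. Monocytes fresh from blood carry Ccr2 and Ly6c2, and lose them as they mature.

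Depth was 31073830 to 36205814 counted reads a tumor. The count of Sora tumor 4 was not in the count table and was worked back from its FPKM (fragments scaled by gene length and library total), which gave whole reads for 20951 genes and left 342 genes with 512 reads in all at 0. Each fold change below that uses all 6 tumors therefore includes recovered counts, and results without that tumor are given for each of the 39 genes that edgeR or DESeq2 called with all 6. Levels by tumor are in CPM (counts scaled to library size with TMM factors, not divided by gene length) and are compared only within a gene, while levels of different genes are compared in FPKM. Values by tumor are in the order control 1, 3 and 4 and Sora 2, 3 and 4.

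The tumors expressed the genes that define macrophages. Mean FPKM in control tumors exceeded 100 for 10 of the 39 genes, lay between 10 and 100 for 23 and between 1 and 10 for 4, and was below 1 for 2. The highest was Lyz2, the myeloid lysozyme, at 996 ± 61.3 FPKM (mean ± SD, n = 3), followed by the chemokine Ccl8 at 697 ± 201 FPKM. The C1q chains came next, with C1qb at 338 ± 43.0, C1qa at 334 ± 33.0 and C1qc at 261 ± 25.4 FPKM, and the first pair did not differ beyond their spread. At the other end were Csf2 at 1.25 ± 0.305 FPKM and the resident-macrophage receptors Timd4 at 0.131 ± 0.0802 and Vsig4 at 0.0395 ± 0.0504 FPKM. Timd4 had 6, 17 and 7 reads in the control and 3, 11 and 23 in the Sora tumors, and Vsig4 had 0 to 5 reads in each tumor.

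**Figure D1:**
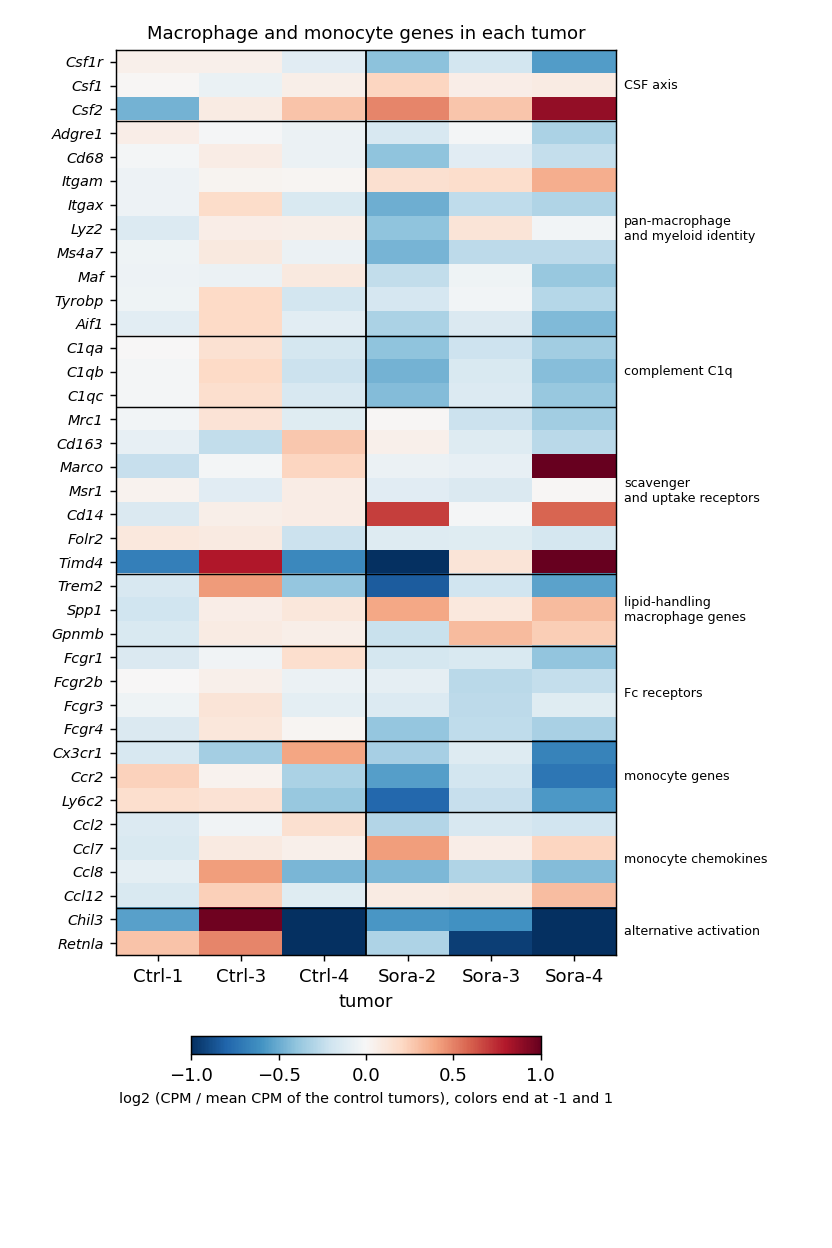
CPM of each of the 38 tested genes in each tumor, as the log2 ratio to the control mean, with genes in rows grouped by role and the 3 control and 3 Sora tumors in columns (blue lower, red higher, colors ending at -1 and 1). Medians over the genes were -0.05, 0.09 and -0.06 for the control tumors and -0.27, -0.14 and -0.28 for the Sora tumors, in numerical order.

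Most of the genes were lower in the Sora-treated tumors by small amounts, and none passed the adjusted threshold. In the edgeR quasi-likelihood test with Benjamini-Hochberg adjustment over all 16513 genes, 0 of 38 genes had an adjusted p under 0.05, against 3.29% of all genes tested in either direction (1.34% lower and 1.94% higher). At an unadjusted p under 0.05, 17 genes (44.7%) were lower and 4 (10.5%) higher, against 8.69% and 8.53% of all genes. The log2 fold change (Sora against control) was below 0 for 28 genes and above 0 for 10, which is 73.7% lower against 50.1% of all genes (49.9% higher), and its median was -0.21 against -0.00 over all genes. DESeq2 called 9 of 37 genes lower and 0 higher at the same threshold, against 3.71% and 4.0% of all genes: Csf1r, Itgax, Ms4a7, C1qa, C1qb, C1qc, Fcgr4, Ccr2 and Ly6c2. The largest change in size was -0.81 (Chil3), so none reached 2-fold.

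These counts depended on single tumors and on the filter. Without Sora tumor 3, edgeR called 7 genes (Csf1r, Ms4a7, C1qc, Fcgr4, Ccr2 and Ly6c2 lower and Cd14 higher), against 3.5% of all genes lower and 3.52% higher. Without the filter on low counts it called 9 lower and 1 higher, against 2.28% and 2.26% of all genes. Without control tumor 4 it called Retnla alone, against 1.08% of all genes, and without Sora tumor 4 it called none, against 0.0306% of all genes. DESeq2 called 0 of the genes without Sora tumor 2 or Sora tumor 4, against 3.77% and 2.99% of all genes, and 16 (13 lower and 3 higher) without Sora tumor 3, against 10.9%. It called 1 without control tumor 1, 1 without control tumor 3 and 11 without control tumor 4, against 4.76%, 6.09% and 6.04% of all genes. The median log2 fold change over the genes moved less, from -0.24 to -0.17 as each tumor was left out in turn. For single genes, leaving out 1 tumor changed the log2 fold change by over 1.5 times or turned its sign in 24 of 38, and did not in the other 14: Csf1r, Csf2, Cd68, Itgam, Itgax, Ms4a7, C1qa, C1qc, Cd14, Spp1, Fcgr2b, Fcgr4, Ccr2 and Ly6c2.

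The Sora tumors were not alike. Sora tumors 2 and 4 each lay below every control tumor in 22 of the 38 genes, and Sora tumor 3 did so in 13. In 21 genes Sora tumor 3 was inside the control range, against 10 genes for Sora tumor 2 and 6 for Sora tumor 4. Control tumor 3 was the highest of its group in 23 genes. The same counts by tumor were not made over all genes, so they describe the tumors and are no result about these genes. In all, the groups did not overlap in 11 genes with lower Sora values (28.9%, against 11.6% of all genes) and in 2 with higher ones (5.26%, against 10.6%).

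**Figure D2:**
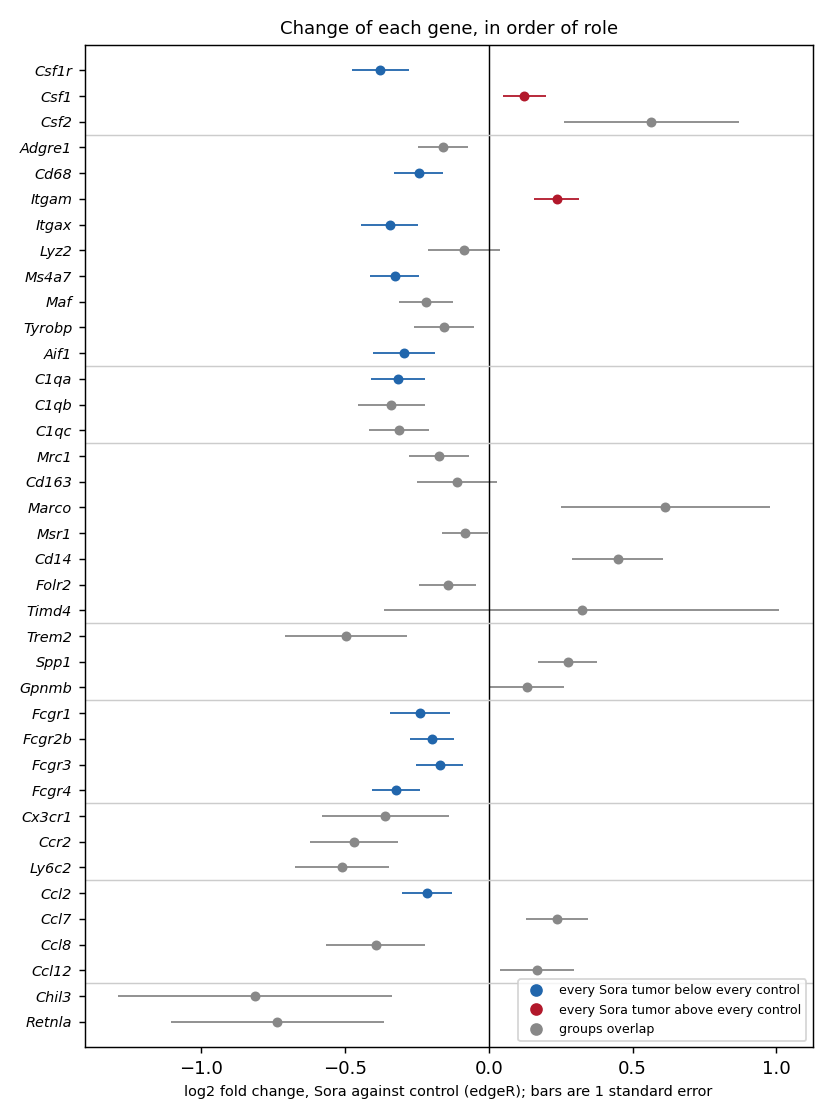
Log2 fold change in Sora against control tumors for the 38 tested genes (edgeR, 3 tumors a group), grouped by role, with bars of 1 standard error and blue or red where every Sora tumor lay below or above every control tumor. Points lie from -0.81 (Chil3) to 0.61 (Marco), and 28 of them are below 0.

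The receptor Csf1r and its ligand Csf1 had log2 fold changes of opposite sign, whereas that of Il34, another ligand, had the sign of Csf1r. Csf1r, the receptor on which macrophage survival depends, was at 340.3, 341, and 303 CPM in the control and 247, 289, and 223 CPM in the Sora tumors. Every Sora tumor lay below every control tumor, with means of 328 ± 21.4 and 253 ± 33.5 CPM and a log2 fold change of -0.38 ± 0.10 (SE; edgeR adjusted p = 0.067, DESeq2 0.0045). Without Sora tumor 4 the fold change was -0.29 (edgeR adjusted p = 0.27), and without Sora tumor 3 the adjusted p was 0.014. Csf1 was at 113, 107, and 117 CPM in the control and 131, 118, and 119 CPM in the Sora tumors, each of which lay above the control range by a small margin (log2 fold change 0.12 ± 0.07, edgeR adjusted p = 0.44, and 0.076 without Sora tumor 2). In FPKM the Csf1 groups overlapped, since Sora tumor 4 at 23.9 lay below control tumors 1 and 4 at 24.1 and 24.4. Il34, from the other list described below, was at 20.2, 19.9, and 19.3 CPM in the control and 15.1, 17.7, and 17.7 CPM in the Sora tumors. Each Sora tumor lay below the control range (log2 fold change -0.23 ± 0.10, edgeR adjusted p = 0.25, 0.38 without Sora tumor 4). The ratio of Csf1 to Csf1r in FPKM, which no scaling between tumors can move, was 0.276 ± 0.0294 in the control and 0.394 ± 0.0575 in the Sora tumors without overlap. Csf2, the granulocyte-macrophage factor, was scarce, with 37 to 97 reads a tumor, and its groups overlapped.

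Of the 9 identity genes, 8 had a log2 fold change below 0, with a median of -0.22. Itgam and Itgax, the alpha chains of the integrins CD11b and CD11c, lie 11 kb apart on chromosome 7 and had log2 fold changes of opposite sign. Itgam was at 93.4, 98.3, and 97.9 CPM in the control and 108, 109, and 124 CPM in the Sora tumors, all of them above the control range (log2 fold change 0.24 ± 0.08, edgeR adjusted p = 0.13, 0.44 without Sora tumor 4). Itgax was at 229, 268, and 213 CPM in the control and 168, 199, and 193 CPM in the Sora tumors, all of them below it (log2 fold change -0.34 ± 0.10, edgeR adjusted p = 0.091, DESeq2 0.014, edgeR 0.24 without Sora tumor 4). Itgam is also carried by neutrophils and monocytes, and Itgax by dendritic cells as well as macrophages.

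The 250 bases upstream of the annotated start of both integrin genes are shown because neighbours with opposite values can be compared letter by letter. The start is that of RefSeq's promoter table, which for Itgax, and for C1qc below, lies slightly inside the outermost boundary of the annotated gene. They are RefSeq sequences of build GRCm38.p6, read 5′ to 3′ along the gene, chr7:128062390-128062639 and chr7:128129300-128129549, both on the plus strand. Capitals mark GAGGAAG or its reverse complement CTTCCTC, a form of the site bound by PU.1, the Ets factor of the myeloid lineage.
Itgam: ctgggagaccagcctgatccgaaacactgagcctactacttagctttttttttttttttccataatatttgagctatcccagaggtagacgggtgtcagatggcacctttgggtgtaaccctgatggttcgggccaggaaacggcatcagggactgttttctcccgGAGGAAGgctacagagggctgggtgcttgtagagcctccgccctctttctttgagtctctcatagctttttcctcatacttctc
Itgax: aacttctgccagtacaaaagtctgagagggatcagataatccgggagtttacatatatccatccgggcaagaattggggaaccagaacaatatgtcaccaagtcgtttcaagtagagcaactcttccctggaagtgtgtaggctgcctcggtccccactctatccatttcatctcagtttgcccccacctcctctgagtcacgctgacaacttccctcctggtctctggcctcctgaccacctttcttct
Itgam had 1 match, which begins 84 bases before the start, and Itgax had none in this window. The match is a run of letters and no measure of binding. It occurred on either strand in 14 of 35 windows of the 30 genes with a promoter entry (40.0%, in 12 genes), against 10.6% of all 32851 windows of that length. For comparison, TGANTCA (N is any base), a loose form of the site of AP-1 factors, was in 5 of the 35 windows (14.3%) and in 6.75% of all.

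**Figure D3:**
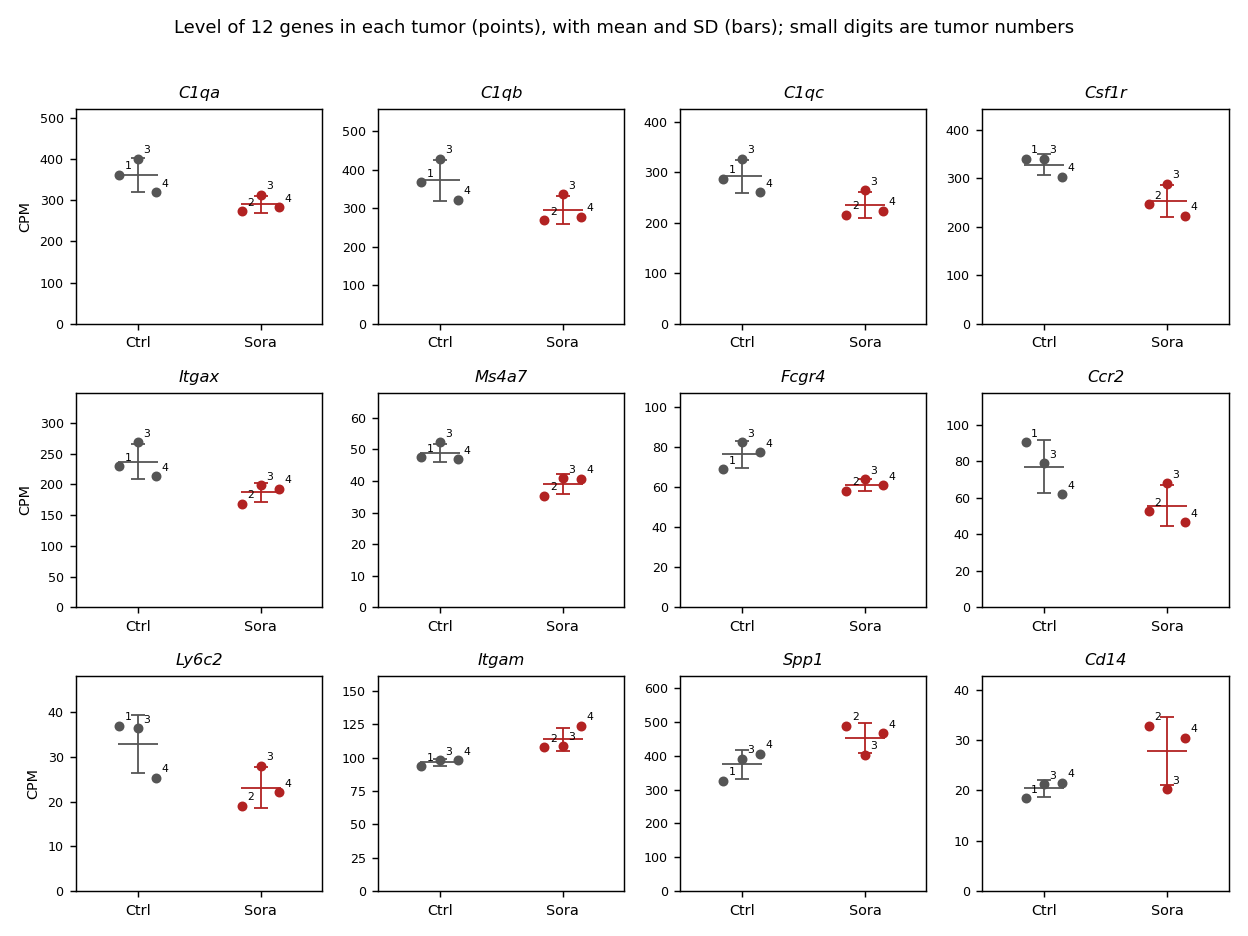
CPM per tumor (points) with the group mean and SD (lines) for selected genes in control and Sora tumors, with each panel on its own axis from 0. Csf1r and Itgax lie lower in every Sora tumor than in any control tumor, and Itgam lies higher.

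Ms4a7, a tetraspan membrane protein of tissue macrophages, was at 47.6, 52.3, and 46.9 CPM in the control and 35.4, 40.8, and 40.8 CPM in the Sora tumors. Its groups did not overlap (log2 fold change -0.33 ± 0.09, edgeR adjusted p = 0.065, DESeq2 0.027), and the adjusted p was 0.17 without Sora tumor 4. The lysosomal protein gene Cd68, at 133, 143, and 130.3 CPM in the control and 103, 125, and 115 CPM in the Sora tumors, and the actin-binding protein gene Aif1, at 40.7, 50.2, and 40.7 and 35.2, 39.7, and 32.2 CPM, also had every Sora tumor below the control range, with log2 fold changes of -0.24 ± 0.09 and -0.30 ± 0.11 and edgeR adjusted p of 0.16 and 0.18. Adgre1, the adhesion receptor most used to mark mouse macrophages, was at 113, 107, and 103 CPM in the control and 96.5, 106, and 86.4 CPM in the Sora tumors, and its groups overlapped (log2 fold change -0.16 ± 0.09, edgeR adjusted p = 0.39). Lyz2 was at 954, 1099, and 1095 CPM in the control and 793, 1144, and 1029 CPM in the Sora tumors, spread across the control range and both sides of it (log2 fold change -0.09 ± 0.13, edgeR adjusted p = 0.79), and its near copy Lyz1 was at 8.83 FPKM in the control tumors. The transcription factor gene Maf, at 121, 119.9, and 134 CPM in the control and 105, 121, and 95.9 CPM in the Sora tumors (log2 fold change -0.22 ± 0.09, edgeR adjusted p = 0.26), and the signalling adaptor gene Tyrobp (log2 fold change -0.16 ± 0.10) overlapped too. Single tumors moved some of these values, with log2 fold changes of -0.044 for Tyrobp and -0.19 for Aif1 without control tumor 3, and of -0.085 for Adgre1, -0.14 for Maf and -0.096 for Tyrobp without Sora tumor 4, while Tyrobp was at -0.24 without control tumor 4. In whole tumors, fewer cells of a type and less RNA per cell cannot be told apart.

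The classical complement starter C1q is built from 3 chains whose genes sit together on chromosome 4, with 3.6 kb between C1qb and C1qc and 2.98 kb between C1qc and C1qa. C1qa was at 362, 401, and 319.6 CPM in the control and 273, 313, and 283 CPM in the Sora tumors, with no overlap. For C1qb the values were 367, 429, and 322 CPM in the control and 269, 336, and 278 CPM in the Sora tumors. For C1qc they were 287, 327, and 260.4 CPM and 216, 265, and 224 CPM in the same order. In the latter 2 genes, Sora tumor 3 lay inside the control range while Sora tumors 2 and 4 lay below it. The log2 fold changes were -0.32 ± 0.10, -0.34 ± 0.12 and -0.31 ± 0.10 for C1qa, C1qb and C1qc, with edgeR adjusted p of 0.10, 0.15 and 0.14 and DESeq2 adjusted p of 0.019, 0.035 and 0.037. Without Sora tumor 4 the edgeR values were 0.32, 0.43 and 0.41, and without control tumor 3 the log2 fold change of C1qb was -0.23.

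The proportions of the chains overlapped between the groups. The FPKM ratio of C1qa to C1qb was 0.991 ± 0.0325 in the control and 1.01 ± 0.0505 in the Sora tumors, and that of C1qa to C1qc was 1.28 ± 0.0189 and 1.28 ± 0.0495. The upstream windows of the 2 chains with a promoter entry are shown to compare genes that kept step, at chr4:136886201-136886450 and chr4:136892915-136893164 (GRCm38.p6, minus strand, capitals as above).
C1qb: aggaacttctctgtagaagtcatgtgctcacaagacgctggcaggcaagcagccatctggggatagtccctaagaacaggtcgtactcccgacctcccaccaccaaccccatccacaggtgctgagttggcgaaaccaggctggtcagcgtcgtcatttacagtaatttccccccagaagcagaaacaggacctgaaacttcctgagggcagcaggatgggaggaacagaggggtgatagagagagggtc
C1qc: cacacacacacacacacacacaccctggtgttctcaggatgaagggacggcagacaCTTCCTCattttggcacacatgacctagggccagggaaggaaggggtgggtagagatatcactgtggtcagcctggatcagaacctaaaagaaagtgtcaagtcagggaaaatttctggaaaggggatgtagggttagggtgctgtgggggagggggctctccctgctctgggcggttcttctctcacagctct
C1qc held 1 match to the PU.1 letters, beginning 194 bases before the start, and C1qb held none in this window.

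The 4 Fc receptor genes were all lower in every Sora tumor than in any control tumor, as were 11.6% of all genes. Their median log2 fold change was -0.22, and edgeR called 0 of them, against 1.34% of all genes lower. The margins were thin for Fcgr1 (27.8 against 27.9 CPM) and Fcgr3 (159.9 against 162 CPM). Fcgr4, an activating receptor for IgG, was at 68.8, 82.3, and 77.4 CPM in the control and 58.1, 63.9, and 60.7 CPM in the Sora tumors. This was the lowest adjusted p among the 38 genes (log2 fold change -0.32 ± 0.08, edgeR adjusted p = 0.062, DESeq2 0.018), and it was 0.22 without Sora tumor 4 and 0.044 without Sora tumor 3. The high-affinity receptor Fcgr1 was at 27.9, 30.2, and 34.6 CPM in the control and 27.3, 27.8, and 23.5 CPM in the Sora tumors. The inhibitory receptor Fcgr2b was at 237, 245, and 226 and 222, 196, and 199.5 CPM, and the activating Fcgr3 at 169, 189.7, and 162 and 158, 145, and 159.9 CPM. Their log2 fold changes were -0.24 ± 0.11, -0.20 ± 0.08 and -0.17 ± 0.08, with edgeR adjusted p of 0.27, 0.21 and 0.32. Fcgr1 was at -0.15 without control tumor 4 and Fcgr3 at -0.10 without control tumor 3 (log2 fold changes). Fcgr2b, Fcgr3 and Fcgr4 share sequence and lie together on chromosome 1, and how reads common to them entered the deposited counts is uncertain. The window upstream of Fcgr4 (chr1:171018676-171018925, plus strand) is shown because it held a PU.1 match 23 bases before the start, the nearest of the 5 windows printed.
Fcgr4: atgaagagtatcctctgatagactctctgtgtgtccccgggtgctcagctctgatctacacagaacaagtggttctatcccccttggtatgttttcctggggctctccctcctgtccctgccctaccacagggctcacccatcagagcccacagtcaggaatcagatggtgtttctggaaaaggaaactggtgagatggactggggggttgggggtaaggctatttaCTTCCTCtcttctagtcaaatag

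The monocyte genes had larger but looser differences, with a median log2 fold change of -0.47. Ccr2, the receptor that brings monocytes out of the bone marrow, was at 90.5, 78.9, and 61.9 CPM in the control and 52.5, 68.0, and 46.7 CPM in the Sora tumors. Only Sora tumor 3 reached into the control range (log2 fold change -0.47 ± 0.15, edgeR adjusted p = 0.13, DESeq2 0.021, edgeR 0.44 without Sora tumor 4 and 0.030 without Sora tumor 3). Ly6c2, a surface antigen of inflammatory monocytes, was at 37.0, 36.5, and 25.4 CPM in the control and 19.1, 28.1, and 22.1 CPM in the Sora tumors, and control tumor 4 lay among the Sora values (log2 fold change -0.51 ± 0.16, edgeR adjusted p = 0.13, DESeq2 0.025, edgeR 0.37 without Sora tumor 4). Its near copy Ly6c1, which endothelial cells also express, had a log2 fold change of -0.03 (edgeR adjusted p = 0.94), and reads shared by the pair make both uncertain. The FPKM ratio of Ly6c2 to Ly6c1 was 0.367 ± 0.0675 in the control and 0.261 ± 0.0419 in the Sora tumors, without overlap. Cx3cr1, the fractalkine receptor of patrolling monocytes, was low at 6.88, 6.05, and 10.1 CPM in the control and 6.10, 7.03, and 4.83 CPM in the Sora tumors, and overlapped (log2 fold change -0.36 ± 0.22, and -0.11 without control tumor 4 or -0.22 without Sora tumor 4).

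The chemokines that attract these monocytes did not share a direction, and their median log2 fold change was -0.02. Ccl2, the main ligand of Ccr2, was at 97.1, 104, and 119 CPM in the control and 87.2, 95.9, and 93.5 CPM in the Sora tumors, which lay just below the control range (log2 fold change -0.21 ± 0.09, edgeR adjusted p = 0.23, and -0.13 without control tumor 4). Its neighbour Ccl7, 8.26 kb away on chromosome 11 and also a Ccr2 ligand, was at 27.4, 32.5, and 31.6 and 40.7, 31.9, and 35.3 CPM and overlapped (log2 fold change 0.24 ± 0.11, and 0.14 without Sora tumor 2). In FPKM the Ccl7 groups were just apart, with Sora tumor 3 at 40.2 and control tumor 4 at 39.8. The Ccl7 to Ccl2 ratio in FPKM was 0.288 ± 0.0238 in the control and 0.395 ± 0.0686 in the Sora tumors, and its groups were apart. Ccl8 was at 333, 477, and 259 CPM in the control and 261, 289, and 264 CPM in the Sora tumors, with control tumor 3 well above the other 5 tumors (log2 fold change -0.39 ± 0.17, and -0.12 without that tumor). Ccl12 overlapped, with a log2 fold change of 0.17 ± 0.13 that ran from 0.091 without Sora tumor 4 to 0.30 without control tumor 3. The related eotaxin gene Ccl11, not among the 39, had a log2 fold change of -0.66 ± 0.19 (edgeR adjusted p = 0.096). These genes are close paralogs, so reads shared among them leave each value uncertain.

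Scavenger and uptake receptors were divided, with 4 of the 7 tested genes lower and 3 higher. Cd14, the co-receptor for bacterial lipopolysaccharide, was at 18.5, 21.2, and 21.5 CPM in the control and 32.9, 20.2, and 30.5 CPM in the Sora tumors. Sora tumors 2 and 4 lay above the control range and Sora tumor 3 inside it (log2 fold change 0.45 ± 0.16, edgeR adjusted p = 0.16, 0.46 without Sora tumor 4 and 0.0074 without Sora tumor 3). Mrc1, the mannose receptor, was at 300.4, 336, and 281 CPM in the control and 309, 264, and 240.3 CPM in the Sora tumors, with Sora tumor 2 inside the control range (log2 fold change -0.17 ± 0.10, and from -0.09 without Sora tumor 4 to -0.28 without Sora tumor 2). Groups also overlapped for the haemoglobin scavenger receptor gene Cd163 (-0.11 ± 0.14), the scavenger receptor gene Msr1 (-0.08 ± 0.08) and the folate receptor gene Folr2 (-0.14 ± 0.10, all log2 fold changes). Marco, another scavenger receptor, had the highest log2 fold change of the 38 genes, 0.61 ± 0.36, and it rested on 1 tumor. It was at 3.95, 4.57, and 5.37 CPM in the control and 4.44, 4.38, and 12.5 CPM in the Sora tumors, and without Sora tumor 4 the fold change was -0.07.

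The genes of lipid-laden macrophages differed among themselves. Trem2, a lipid-sensing receptor, was at 14.1, 21.2, and 12.1 CPM in the control and 8.88, 13.8, and 10.9 CPM in the Sora tumors and overlapped (log2 fold change -0.50 ± 0.21, edgeR adjusted p = 0.25, and -0.23 without control tumor 3). Spp1, the secreted phosphoprotein osteopontin, was at 326, 392, and 406 CPM in the control and 489, 403, and 467 CPM in the Sora tumors, where Sora tumor 3 lay just below control tumor 4 (log2 fold change 0.27 ± 0.10, edgeR adjusted p = 0.19). Spp1 is also made by tumor cells, so its level here is not that of macrophages alone. Gpnmb, a lysosomal glycoprotein, overlapped with a log2 fold change of 0.13 ± 0.13 that ran from 0.029 without Sora tumor 3 to 0.28 without Sora tumor 2.

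The alternative activation genes varied widely between tumors of the same group. Retnla, a secreted protein induced by type 2 cytokines, was at 168, 193, and 52.9 CPM in the control and 112, 71.8, and 65.2 CPM in the Sora tumors. Control tumor 4 was below every Sora tumor and control tumors 1 and 3 above them, and the log2 fold change of -0.73 ± 0.37 (edgeR adjusted p = 0.35, 0.66 without Sora tumor 4) became -1.12 with an adjusted p of 0.045 without control tumor 4 and -0.41 without control tumor 3. Chil3, a chitinase-like protein, was at 31.3, 89.7, and 15.9 CPM in the control and 30.4, 30.0, and 17.4 CPM in the Sora tumors. Control tumor 3 alone stood far above the rest, and the log2 fold change of -0.81 ± 0.48 (edgeR adjusted p = 0.43) became 0.14 without it and -1.22 without control tumor 4. Both genes have near copies that may share reads, of which Retnlg was at 23.5 FPKM (control mean) and Chil4 at 0.0411 FPKM.

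**Figure D4:**
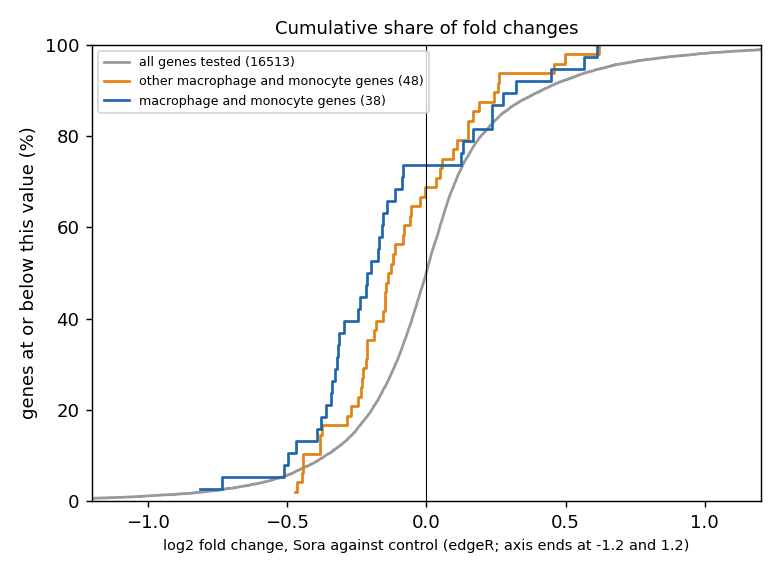
Cumulative share of genes (y axis, percent) by log2 fold change in Sora against control tumors (x axis) for the 38 macrophage and monocyte genes (blue), the 48 others of these cells described below (orange) and all 16513 genes tested (grey). The median of the 38 genes is -0.21 and that of all genes -0.00, and 73.7% against 50.1% lie below 0.

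Relations between the genes within a tumor do not depend on library scaling, and 12 FPKM ratios were computed, with pairs chosen after the values were seen. The groups did not overlap in 5 of them. Apart from the pairs given above, Itgam to Csf1r was 0.244 ± 0.0205 in the control and 0.378 ± 0.0756 in the Sora tumors, and Adgre1 to Csf1r was 0.380 ± 0.0158 and 0.442 ± 0.0141. C1qa to Csf1r was at 3.93 ± 0.246 and 4.13 ± 0.372 and Fcgr4 to Csf1r at 0.722 ± 0.0851 and 0.754 ± 0.0826, and both overlapped. Itgam to Csf3r, the granulocyte colony-stimulating factor receptor of neutrophils, was 2.82 ± 0.350 and 2.40 ± 0.511 and overlapped too. Relative to Ptprc, the CD45 gene of all leukocytes, Csf1r was 2.15 ± 0.257 in the control and 2.08 ± 0.101 in the Sora tumors, and C1qa was 8.50 ± 1.49 and 8.58 ± 0.481, and both overlapped.

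A list of other macrophage and monocyte genes, 48 of which were tested, gave a similar split. In it 33 genes had a log2 fold change below 0 and 15 above, with a median of -0.13. The edgeR test called 2 of them, against 1.34% of all genes in that direction, and both fell. Mertk, a receptor tyrosine kinase for the uptake of apoptotic cells, was at 43.7, 43.1, and 44.1 CPM in the control and 29.7, 36.5, and 29.7 CPM in the Sora tumors (log2 fold change -0.45 ± 0.09, edgeR adjusted p = 0.031). Slc40a1, the iron exporter ferroportin, was at 77.3, 64.4, and 84.9 CPM in the control and 51.4, 61.5, and 51.5 CPM in the Sora tumors (log2 fold change -0.46 ± 0.11, edgeR adjusted p = 0.047). Every Sora tumor lay below the control range in both genes. The Mertk call was lost when any tumor but Sora tumor 3 was left out, and that of Slc40a1 when any but control tumor 3 or Sora tumor 3 was, with adjusted p of 0.16 and 0.21 without Sora tumor 4. Sirpa, the receptor for the CD47 signal, was at 282, 282, and 248 and 198, 234, and 194 CPM (log2 fold change -0.37 ± 0.09, edgeR adjusted p = 0.053, DESeq2 0.0027, edgeR 0.23 without Sora tumor 4). The inflammatory chemokine gene Ccl3 was at 11.8, 15.9, and 14.6 CPM in the control and 23.2, 16.4, and 20.1 CPM in the Sora tumors, the latter all higher (log2 fold change 0.50 ± 0.15, edgeR adjusted p = 0.10, DESeq2 0.028, edgeR 0.28 without Sora tumor 4). Cebpb, a transcription factor of the inflammatory response, and Cd209a, a lectin that dendritic cells also carry, had log2 fold changes of 0.26 ± 0.09 and 0.62 ± 0.24 (edgeR adjusted p = 0.16 and 0.21). DESeq2 called 9 genes of this list lower and 1 higher, against 3.71% and 4.0% of all genes, and without Sora tumor 4 the edgeR adjusted p of these 10 was 0.16 to 0.34.

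Marker sums of some other cell types lay apart between the groups, and the sums were not tested. Single genes lay apart with lower Sora values in 11.6% of all genes. The edgeR test called 0 of the leukocyte, T cell, NK cell and fibroblast markers (lowest adjusted p = 0.055, 0.065, 0.16 and 0.056). It called 1 of the 5 red blood cell genes lower (adjusted p = 0.031), against 1.34% of all genes. The summed CPM of 4 pan-leukocyte markers was 991 to 1107 in the control and 863 to 955 in the Sora tumors, that of 6 T cell markers 149 to 169 and 125 to 132, and that of 5 fibroblast markers 5557 to 5723 and 4082 to 5055, each without overlap. NK cell markers (24.4 to 30.1 and 21.9 to 23.2 CPM) and red blood cell genes (47.0 to 129 and 32.8 to 44.1 CPM) were also lower without overlap. Within the fibroblast list the difference lay in the collagen genes Col1a1 and Col1a2 (log2 fold changes -0.42 and -0.47, edgeR adjusted p = 0.12 and 0.056, 0.29 and 0.17 without Sora tumor 4), whereas Dcn (0.03), Pdgfra (-0.03) and Lum (-0.22) overlapped. Most of the NK cell sum came from Klrk1, whose groups overlapped, and Ncr1 and Klrb1c had log2 fold changes of 0.45 and -0.00. Eomes alone of the 4 genes was apart, with lower values in the Sora tumors. The sum over the 39 macrophage and monocyte genes was 5533 to 6449 in the control and 4980 to 5562 in the Sora tumors, and its groups overlapped. Neutrophil markers summed to 287 to 360 and 306 to 359 CPM, and 6 of the 7 tested had a log2 fold change above 0. Most of that sum was Mmp9, the exception, a protease that macrophages also make (log2 fold change -0.23, overlapping). Csf3r was at 37.4, 30.7, and 34.6 CPM in the control and 59.1, 39.8, and 46.0 CPM in the Sora tumors (log2 fold change 0.50 ± 0.13, edgeR adjusted p = 0.072, DESeq2 0.0069), and Csf3r and Mmp8 (log2 fold change 0.76 ± 0.32) were apart like Itgam, with every Sora tumor higher. S100a9, a calcium-binding protein of neutrophils and monocytes, was at 11.3, 14.7, and 10.1 CPM in the control and 41.8, 16.3, and 25.2 CPM in the Sora tumors (log2 fold change 1.21 ± 0.28, edgeR adjusted p = 0.042, 0.14 without Sora tumor 4). The defining neutrophil gene Ly6g was at most at 0.332 CPM in any tumor. The sums of dendritic cell, B cell, mast cell, endothelial, hepatoma, skeletal muscle, adipocyte and keratinocyte markers overlapped between groups, the last with a range of 284 to 985 CPM among the control tumors. Of the 8 hepatoma genes, Ttr and Alb fell (log2 fold changes -2.15 and -0.55, edgeR adjusted p = 0.0055 and 0.041) and Hnf4a and Apoa1 rose (0.80 and 1.03, edgeR adjusted p = 0.013 and 0.047), and without Sora tumor 4 the call of Ttr alone was kept (adjusted p = 0.046, against 0.17, 0.082 and 0.15). The part of these other cell types in the values above was not tested.

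**Figure D5:**
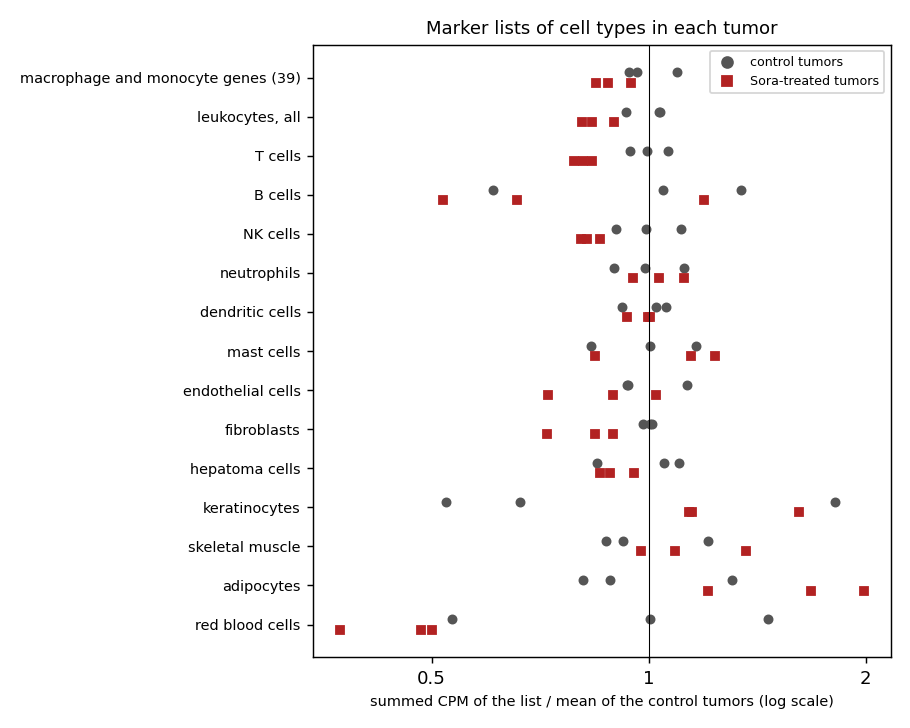
Summed CPM of each marker list in each tumor, relative to the control mean and on a log axis, for control and Sora tumors. Leukocyte, T cell, NK cell, fibroblast and red blood cell sums lie lower in every Sora tumor than in any control tumor, while those of the 39 macrophage and monocyte genes and of neutrophils overlap.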

How the data were processed

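Bulk libraries were sequenced from 6 Hepa1-6 tumors, 3 of them Sora-treated, and samples were grouped by their treatment labels. The authors deposited raw counts per gene for 5 tumors and FPKM for all 6. In the deposited tables each FPKM equalled the count divided by 1 length per gene and by the total count, so that counts of Sora tumor 4 were recovered from its FPKM, and in the 5 other tumors every count recovered the same way equalled the deposited count. The submitters' processing notes name fastp, HISAT2, HTSeq, R 3.2.0, DESeq2 and GRCm39, without roles, whereas the study's methods name Bowtie2 and GRCm38, so the build of the counts is uncertain. The methods also name an expectation maximization step for FPKM, which can divide shared reads among paralogs, whereas the deposited counts are whole numbers, so how such reads were counted is uncertain. Strand handling is not given in the sources used here. No coordinates come from the tables, and RefSeq promoter sequences (GRCm38.p6) were matched by symbol for 30 of the 39 genes.

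Genes that reached 10 counts in 3 or more tumors were tested with the edgeR 4.0.16 quasi-likelihood test (TMM scaling, no covariate, R 4.3.3), with Benjamini-Hochberg adjustment over all genes tested and a threshold of 0.05. The common biological coefficient of variation was 0.132. Tables were joined with pandas 2.3.3. The fit was tested on simulated data with known changes. Alternatives were DESeq2 1.42.0, other scalings and filters, a mean of at least 50 counts, a replicate block, limma 3.58.1 on log2(FPKM + 1) and log2(FPKM + 0.1) of the deposited FPKM, and each tumor left out in turn. All 39 genes are accounted for, with values by tumor for those at an unadjusted p under 0.05 or without overlap between groups and for the highest of each role, and from the other macrophage and monocyte list those called by edgeR and the 3 with the smallest p in each direction were named. The marker genes named singly, Il34 from the other list and the ratios were chosen after their values were seen. The genes and all lists were chosen with earlier results of these data known, so their counts and medians are descriptions. Total counts of 31073830 to 36205814 reads limit precision for Timd4, Vsig4 and Csf2, which had under 100 reads a tumor.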

Additional observations from a re-analysis of the deposited data

How the results depend on the processing

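The median log2 fold change over the 38 genes (-0.21) kept its sign in all 15 alternatives, from -0.24 to -0.17 with 1 tumor left out. The count of called genes (0) was 9 with DESeq2 and 10 without the filter on low counts, where Cd14 joined the 9 that DESeq2 called, and the cause was not tested. It was 0 to 7 in edgeR with 1 tumor left out, and 0 to 16 in DESeq2 with 1 tumor left out, an alternative chosen after seeing the data. It was also 0 with DESeq2's size factors, with total counts and at the higher count minimum (3.25%, 3.19% and 4.06% of all genes called), under the replicate block (0.757%) and in the limma fits (2.32%, 2.05% and, without a filter, 0%), and where so few genes were called the 0 says little about these genes.

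The count of called genes in the other macrophage and monocyte list (2) was 10 with DESeq2 (7.71% of all genes called), 9 without the filter (4.54%), 1 with total counts and no TMM factor, 0 under the replicate block and 0 in each limma fit (shares of all genes as above), and 0 to 9 (edgeR) or 2 to 11 (DESeq2) with 1 tumor left out. For DESeq2 it was 5, 10 and 7 without control tumors 1, 3 and 4 and 2, 11 and 4 without Sora tumors 2, 3 and 4, against 1, 1, 11, 0, 16 and 0 for the 38 genes and 4.76%, 6.09%, 6.04%, 3.77%, 10.9% and 2.99% of all genes in the same fits. Timd4 had no adjusted p in 7 of 15 alternatives, among them the fits without control tumor 3, Sora tumor 3 and Sora tumor 4, which holds 23 of its reads. DESeq2, also among the 7, gave it a log2 fold change of 0.32. Of 44 single genes, 40 kept their direction in every alternative that gave an adjusted p. The exceptions were Lyz2 (log2 fold change 0.052 without Sora tumor 2, from -0.21 to 0.052 with 1 tumor left out), Cd163 (0.049 without control tumor 4, from -0.22 to 0.049), Marco (-0.071 without Sora tumor 4, from -0.071 to 0.86) and Chil3 (0.14 without control tumor 3, from -1.22 to 0.14).

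The groups share only the numbers 3 and 4, and the deviations of same-numbered tumors correlated at -0.03 and -0.07 across 16513 genes, so the replicate numbers were not taken as pairs. The replicate block left 1 residual degree of freedom and a median of -0.24. Groups of 3 tumors are too small to test single tumors as outliers.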
